A study of Homo sapiens with 2 samples.

Results

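The genes described here are 9 genes of the integrated stress response and of protein folding stress in the endoplasmic reticulum (ER): the transcription factor *ATF4*, its targets *DDIT3*, *DDIT4*, *SESN2*, *ASNS*, *PHGDH* and *GDF15*, and the ER genes *SEL1L* and *SDF2L1*. They were chosen by name, and several of them from their differences in these same arrays, so their values are a description with no test. All 9 were measured, out of 14812 named genes. The cells were HT29, a human colorectal carcinoma line, and had received either a control siRNA (siControl) or an siRNA (siREG4) that targets the secreted lectin *REG4*. Each group was a single array, so no difference below has a replicate check, a spread or a p-value. For the siREG4 array, the title and source name give REG4 but the treatment label gives GATA6, and the title was followed. *REG4* itself was the only symbol of 0 probe sets, and its knockdown was not analysed here. The *REG4* siRNA used for the array and the time after transfection were not given in the sources used here.

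In the integrated stress response, kinases that sense amino acid shortage, ER stress, mitochondrial stress or double-stranded RNA phosphorylate the translation factor eIF2alpha. Translation in general falls, while the mRNA of *ATF4* is translated more. The ATF4 protein then raises genes of amino acid supply, of mTORC1 inhibition and of cell death, together with the secreted factor GDF15. In parallel, ATF6 and XBP1 raise chaperones and degradation factors of the ER. Arrays measure mRNA, so a change in ATF4 translation is outside what they read.

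The deposited values were centred per probe set (a group of probes for 1 transcript): the 2 columns summed to 0 within 1e-06, so each gene carries 1 number, the log2 difference between the arrays, and no level. The log base was taken as 2. The marker genes of colon epithelium could therefore not be checked for their presence in HT29 cells. Over all named genes the median difference was 0.0, and 61.9% differed by less than 0.1. For scale, the 84 keratin-associated protein (*KRTAP*) genes, hair genes that serve here as a gauge of dim probe sets, ranged from -0.22 to 0.30 with an SD of 0.09 across genes.

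The DNA around the start sites of these genes is shown first, because ATF4 and the ER factors bind known elements there. RefSeq windows of GRCh38.p14, from 250 bases before to 50 after a start, were found for all 9 genes (12 windows). The element bound by ATF4 with C/EBP partners was searched as TGATGNAAN on both strands. It was found in 1 of the 9 genes, *ASNS*, and in 3.61% of all 35116 windows. The ASNS copy began 68 bases before the start and is in capitals in the stretch at chr7:97872433-97872512, minus strand.
ASNS: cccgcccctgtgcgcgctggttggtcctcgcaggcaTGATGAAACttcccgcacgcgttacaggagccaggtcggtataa

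Within these windows, none of the 9 genes (0 of 9) held the stricter form TGATGNAAT, which 0.991% of windows held. The same was true of the ER stress response element (CCAAT and then CCACG after 9 bases, 0.0769% of windows). It was also true of TGACGTGG, the core bound by XBP1 and ATF6 (0.729%). DNA outside the windows was not searched, so elements there would be missed. A variant of the ER element, known as element II, has ATTGG and CCACG with 1 base between them. It was added after the values were seen and was found in *SDF2L1*, beginning 188 bases before the start, and in 0.0541% of all windows. It lies on the opposite strand and is in capitals at chr22:21642079-21642158, plus strand.
SDF2L1: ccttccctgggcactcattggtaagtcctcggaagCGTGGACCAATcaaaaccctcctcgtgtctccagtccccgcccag

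The CCAAT box, shared by the ER elements and bound by NF-Y, was also added after the values were seen. At least 1 copy on either strand was found in the windows of 7 of the 9 genes, and those of *ATF4* and *ASNS* held none (0 copies). Of all windows, 34.6% held a copy. That share counts windows and not genes, and the 9 genes had 12 windows. *SEL1L* had the most, with 5 copies, followed by *SDF2L1* with 4. *SDF2L1* and *PHGDH*, which were lower in the siREG4 array, held the box as did *GDF15* and *SESN2*, which were highest. Boxes are in capitals in the stretches shown before the starts of *GDF15* (chr19:18386038-18386157, plus strand), *SESN2* (chr1:28259358-28259457, plus strand) and *SEL1L* (chr14:81533854-81534013, minus strand). In the SEL1L stretch, adjacent capitals are 2 boxes on opposite strands, and the copy of *SEL1L* that begins 207 bases before the start lies outside it. A match describes these letters only.
GDF15: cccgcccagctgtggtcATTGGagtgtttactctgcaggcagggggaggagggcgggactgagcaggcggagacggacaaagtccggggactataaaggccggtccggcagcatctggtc
SESN2: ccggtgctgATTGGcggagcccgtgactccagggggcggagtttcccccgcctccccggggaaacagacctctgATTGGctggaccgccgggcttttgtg
SEL1L: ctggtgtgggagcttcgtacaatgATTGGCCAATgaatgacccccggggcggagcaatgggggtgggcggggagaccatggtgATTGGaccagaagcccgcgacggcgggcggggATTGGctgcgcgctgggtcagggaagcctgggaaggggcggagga

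The 1.4-fold threshold is that of the study's methods, which state it for decreases, and it was applied here in both directions. Past it, 6 of the 9 genes were higher in the siREG4 array and 0 were lower, and 3 lay within it. Over all named genes, 224 (1.51%) were higher past 1.4-fold and 248 (1.67%) were lower. Since the 9 genes were picked with these values known, nothing is read from that contrast. Past 2-fold, 2 of the 9 were higher, beside 26 of all named genes (0.176%). The median over the 9 genes was 0.58.

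**Figure D1:**
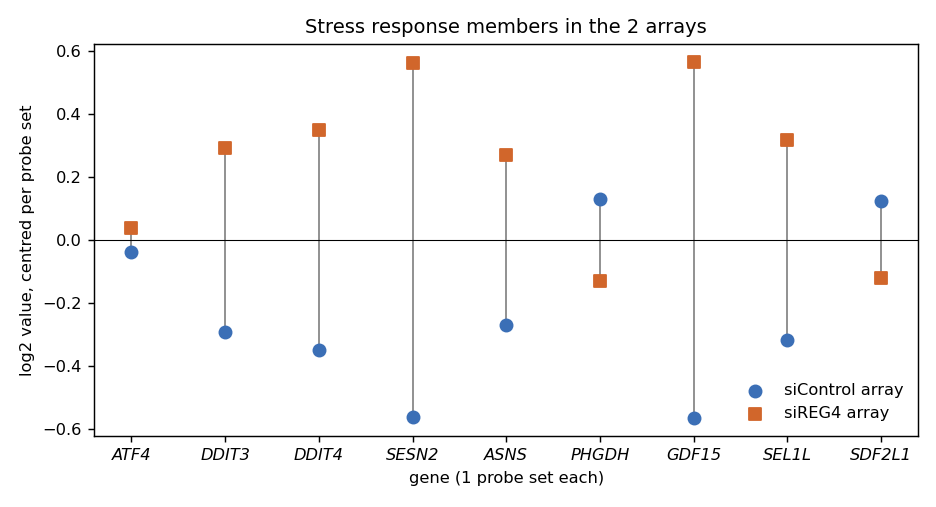
Deposited log2 values (y axis, centred per probe set) of the 9 genes in the siControl array (blue circles) and the siREG4 array (orange squares), with a grey line joining the pair. The pairs mirror each other around 0 because of the centring, and the lines are longest for *GDF15* and *SESN2*, whereas *PHGDH* and *SDF2L1* run the other way.

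*ATF4*, the factor at the centre of the response, differed least of all 9. Its value was -0.04 in the siControl array and 0.04 in the siREG4 array, a difference of 0.07 (1.05-fold). That placed it at rank 3332 of 14812 from the highest, inside the range of the *KRTAP* genes. *DDIT3*, the bZIP factor CHOP, whose transcription ATF4 drives and which promotes cell death under lasting stress, was at -0.29 in siControl and 0.29 in siREG4. Its difference of 0.58 (1.5-fold) exceeded that of *ATF4* by 0.51 on the log2 scale.

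*GDF15*, a stress-induced cytokine of the TGF-beta family that acts on the hindbrain receptor GFRAL to reduce food intake, was the highest of the 9. It was at -0.56 in siControl and 0.56 in siREG4, a difference of 1.13 or 2.19-fold, at rank 16 of all named genes. Its difference exceeded that of *ATF4* by 1.05 on the log2 scale, a ratio of 2.08. *SESN2*, a leucine-binding sestrin that restrains mTORC1 through the GATOR complexes, was next to it at rank 17, with -0.56 in siControl and 0.56 in siREG4. Its difference was 1.12 (2.18-fold), so that *GDF15* and *SESN2* lay 0.0060 apart on the log2 scale. With 1 difference per gene, rank is the only likeness the table allows. The other neighbours of *GDF15* in rank were the antisense RNA *CLDN10-AS1* (1.19) and *AHNAK2* (1.16) above it and *EEA1*, an early endosome tether, just below *SESN2* (1.11).

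*DDIT4*, also known as REDD1, inhibits mTORC1 through the TSC complex. It was at -0.35 in siControl and 0.35 in siREG4, 1.62-fold higher (0.70, rank 86). The mTORC1 inhibitors *SESN2* and *DDIT4*, picked with these values known, were thus both higher past 1.4-fold. Their relatives *SESN1* (-0.04), *SESN3* (-0.01) and *DDIT4L* (-0.02) were not, and 1.51% of all named genes were.

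The amino acid enzymes differed in opposite directions. *ASNS*, which makes asparagine from aspartate and glutamine and carries the ATF4 element shown above, was at -0.27 in siControl and 0.27 in siREG4, 1.45-fold higher (0.54, rank 171). *PHGDH*, which starts serine synthesis from 3-phosphoglycerate, was at 0.13 in siControl and -0.13 in siREG4, a difference of -0.26 (1.2-fold lower). The distance between these enzymes was 0.80 on the log2 scale, or 1.74-fold. The value of *PHGDH* lay just below the lowest *KRTAP* gene and did not pass 1.4-fold.

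The ER genes were split in the same manner. *SEL1L*, the partner of the ubiquitin ligase HRD1 in ER-associated degradation, was at -0.32 in siControl and 0.32 in siREG4, 1.55-fold higher (0.64, rank 106). *SDF2L1*, a cofactor of the ER chaperone BiP with the variant ER element shown above, was at 0.12 in siControl and -0.12 in siREG4, a difference of -0.24 (1.18-fold lower). *SEL1L* and *SDF2L1* were 0.88 apart on the log2 scale, or 1.84-fold. Each of the 9 genes had 1 probe set, so no value could be set against another probe set of the same gene.

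**Figure D2:**
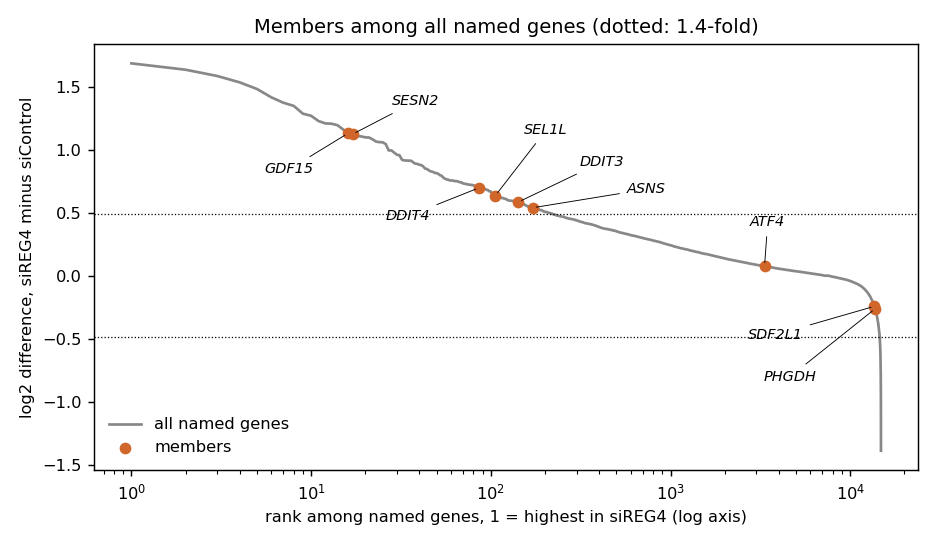
Log2 difference (y axis, siREG4 minus siControl) against rank on a log axis for all 14812 named genes (grey line), with the 9 genes as orange points and 1.4-fold as dotted lines. *GDF15* and *SESN2* sit at ranks 16 and 17, *DDIT4*, *SEL1L*, *DDIT3* and *ASNS* between ranks 86 and 171, and *ATF4* at rank 3332 on the flat stretch.

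For *GDF15* the array offered a further probe set at the same locus. Named genes that overlap any of the 9 genes on the genome were looked up after the values were seen, and 3 were found, at 2 of the 9 loci. *MIR3189*, a microRNA gene in the intron of *GDF15* on the same strand, was at -0.44 in siControl and 0.44 in siREG4. It was thus 1.85-fold higher (0.89, rank 39), in the direction of its host gene. *MIR616*, which lies inside *DDIT3* on the same strand, was at -0.04 in siControl and 0.04 in siREG4, a difference of 0.08, far from the 0.58 of *DDIT3*. *MARS1*, the methionyl-tRNA synthetase gene whose end overlaps that of *DDIT3* on the opposite strand, differed by 0.17. These probe sets read transcripts of the microRNA loci, and whether mature microRNA differed was not tested. Outside the gene, the nearest named genes on either side of *GDF15* were *MIR3188* (0.18) and *LRRC25* (0.0), neither past 1.4-fold. Of the 18 such neighbours of the 9 genes, *MCU*, the mitochondrial calcium uniporter on the far side of *DDIT4*, was the only gene past it (-0.80, lower). Genes without a named probe set were passed over, so a neighbour can lie far away. *DDIT4* ends at chr10:72276036 and *MCU* starts at chr10:72692143.

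The mature microRNAs of these host genes are given as RefSeq has them (GRCh38.p14), 5′ to 3′, with the seed (bases 2 to 8) in capitals. The miR-3189 arms lie at chr19:18386570-18386594 and chr19:18386607-18386627, plus strand, and the miR-616 arms at chr12:57519223-57519244 and chr12:57519183-57519204, minus strand. No seed was shared among these 4 arms.
hsa-miR-3189-5p: uGCCCCAUcugugcccuggguagga
hsa-miR-3189-3p: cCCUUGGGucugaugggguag
hsa-miR-616-5p: aCUCAAAAcccuucagugacuu
hsa-miR-616-3p: aGUCAUUGgaggguuugagcag

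**Figure D3:**
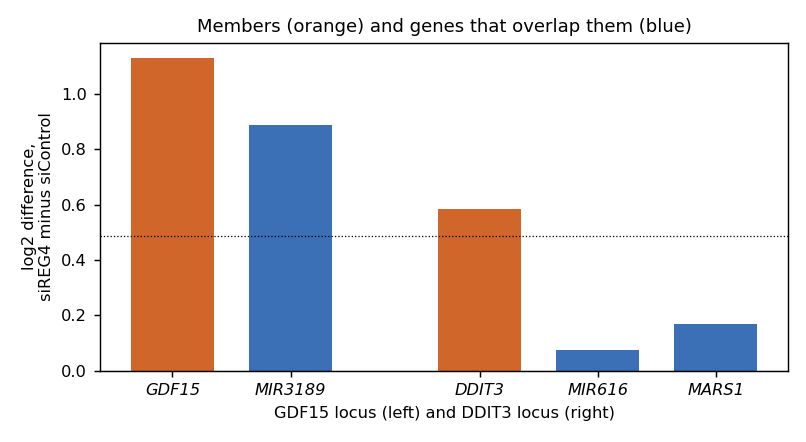
Log2 differences (y axis, siREG4 minus siControl, 1 array per group) of *GDF15* and *DDIT3* (orange bars) and of the named genes that overlap them (blue bars), with 1.4-fold as a dotted line. *MIR3189* at 0.89 passes the line as its host *GDF15* does, and *MIR616* at 0.08 and *MARS1* at 0.17 stay below it.

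The rest of the pathway was then set beside these genes, beginning with the kinases upstream of ATF4. None of the 4 eIF2alpha kinases passed 1.4-fold (0 genes), and their median was 0.10. *EIF2AK1* (HRI), which relays haem shortage and mitochondrial stress, was the highest at 0.37. *EIF2AK2* (PKR), the sensor of double-stranded RNA, was the lowest at -0.44, while *EIF2AK3* (PERK), the ER sensor, was at 0.11 and *EIF2AK4* (GCN2), the sensor of uncharged tRNA, at 0.09. A list of 17 genes of eIF2, eIF2B, the eIF2alpha phosphatase and associated factors had 3 measured genes, all of them associated factors: the separate initiation factor *EIF2D* (-0.13), the GCN2 inhibitor *IMPACT* (0.01) and the GCN2 activator *GCN1* (0.05). The listed subunits and phosphatase genes were not analysed here.

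Among 14 measured sensors and factors of the unfolded protein response, 11 were higher and 3 lower, with a median of 0.11, and *DDIT3* was the only gene of that list past 1.4-fold. *ATF6* (0.08), *ERN1* (IRE1, 0.08) and *XBP1* (-0.14) lay within the *KRTAP* range, as *ATF4* did. Among 25 measured bZIP partners and regulators of ATF4, 16 were higher and 9 lower, and the median was 0.07. *DDIT3* and the AP-1 subunit *FOSL1* (0.62) were higher past 1.4-fold and 0 were lower. *TRIB3*, an ATF4-induced pseudokinase that inhibits ATF4, was at 0.32, and *ATF3* and *ATF5*, also targets of ATF4, were at 0.07 and -0.14.

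The lists of ATF4 targets held 41 measured genes in all. Of these, 29 were higher and 12 lower, 7 (17.1%) passed 1.4-fold upwards and 0 downwards, and the median was 0.09, against 0.0 for all named genes. The list median exceeded the *ATF4* difference by 0.02 on the log2 scale, and the direction turned when the genes described above, several of them chosen for their values, were left out. Of the 35 other targets, 24 (68.6%) were higher and 2 (5.71%) passed 1.4-fold upwards. Their median of 0.07 minus the *ATF4* difference was -0.01.

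In the list of stress signalling and secretion, 15 of 20 measured genes were higher, 6 of them past 1.4-fold, with a median of 0.12. Without *GDF15*, *SESN2*, *DDIT4* and *DDIT3*, the list held 16 measured genes, of which 11 were higher, 2 passed 1.4-fold and the median was 0.08. The genes past 1.4-fold were *KLHL24* (1.23, 2.34-fold), an adaptor of a cullin ubiquitin ligase, *GDF15*, *SESN2*, *DDIT4*, the autophagy receptor *SQSTM1* (0.62) and *DDIT3*. The angiogenic factor *VEGFA* (0.45) fell short of the threshold, and *EIF4EBP1*, a translation repressor that ATF4 can raise, was the lowest at -0.36. *CHAC1*, *NUPR1*, *PPP1R15A*, *CEBPB* and *HERPUD1*, familiar genes of the response, had no named probe set and were not analysed here.

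Of 9 measured enzymes of amino acid synthesis, 4 were higher and 5 lower, with a median of -0.01, and *ASNS* was the only gene of that list past 1.4-fold. The serine synthesis enzymes were at -0.26 (*PHGDH*), 0.06 (*PSAT1*) and -0.26 (*PSPH*), and the proline enzyme *PYCR1* was at -0.24. *CTH*, which makes cysteine, was at 0.27. Of 12 measured aminoacyl-tRNA synthetases, which charge tRNAs, 10 were higher and 2 lower, with a median of 0.09. None passed 1.4-fold (0 genes), from *YARS1* (-0.06) to *GARS1* (0.47). The 12 listed amino acid transporters were not analysed here, since 0 of them had a named probe set.

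**Figure D4:**
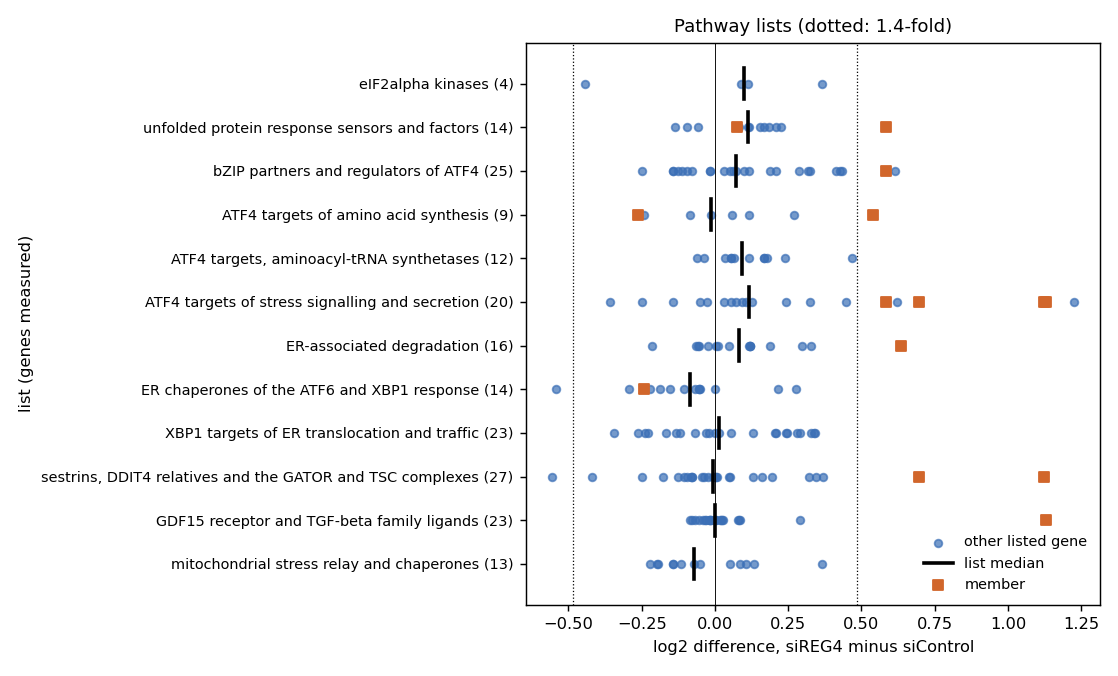
Log2 difference (x axis, siREG4 minus siControl) of each measured gene in 12 pathway lists, with the 9 genes as orange squares, other genes as blue points, list medians as black bars and 1.4-fold as dotted lines. List medians lie between -0.09 and 0.12, while the squares of *GDF15*, *SESN2* and *DDIT4* lie to the right of the 1.4-fold line.

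Genes of ER stress were the second comparison for *ATF4*. The ER lists held 65 measured genes in all, of which 35 were higher and 28 lower. Of these, 2 passed 1.4-fold upwards and 1 downwards, and the median was 0.01, which is 0.06 below *ATF4*. The 2 were *SEL1L* and *DDIT3*, and *DDIT3* was counted among the ATF4 targets as well. Without the genes described above, 62 were left, of which 33 were higher and 27 lower. Of the 62, 0 passed upwards and 1 downwards, with a median of 0.01. In ER-associated degradation, 11 of 16 measured genes were higher, and *SEL1L* was the only gene of that list past 1.4-fold. Next came the lectin *ERLEC1* (0.33) and *UBXN4* (0.30), which act with it in the recognition and extraction of misfolded proteins, while the derlins *DERL1* (0.12), *DERL2* (0.12) and *DERL3* (0.01) lay closer to 0. The list median was 0.08, and 0.05 without *SEL1L*.

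In the list of ER chaperones and oxidoreductases, 11 of 14 measured genes were lower and 2 higher, with a median of -0.09. *ERO1A*, the oxidase that recharges protein disulfide isomerases, was lower past 1.4-fold (-0.54, 1.46-fold), and 0 were higher past it. *SDF2L1* was the third lowest of the list after *ERO1A* and *ERP29* (-0.29), and its paralog *SDF2* was at -0.10. *CRELD2* (0.28) and *HYOU1* (0.21, mean of 2 probe sets) were the highest. *HSPA5* (BiP), *HSP90B1* and *DNAJB11* had no named probe set and were not analysed here. Of 23 measured genes of ER translocation and traffic, 12 were higher and 10 lower, from *DDOST* (-0.34) to *SEC23B* (0.34), with 0 past 1.4-fold and a median of 0.01.

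The relatives of *SESN2*, *DDIT4* and *GDF15* were compared as families. The other sestrins were at -0.04 (*SESN1*) and -0.01 (*SESN3*), and *DDIT4L*, the paralog of *DDIT4*, was at -0.02, all inside the *KRTAP* range. In the list of sestrins, DDIT4 relatives and the GATOR and TSC complexes, 27 genes were measured, of which 12 were higher and 14 lower, with a median of -0.01. *SESN2* and *DDIT4* were higher past 1.4-fold, and *SEH1L*, a subunit shared by GATOR2 and the nuclear pore, was lower (-0.56). *TSC2*, through which DDIT4 acts, was at 0.37, and the GTPase *RRAGA*, on which the GATOR complexes converge, at -0.42.

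Of 23 measured TGF-beta family ligands and GDNF-type receptors, *GDF15* was the only gene past 1.4-fold, 10 were higher and 11 lower, and the median was 0.0. *BMP4* (0.29) followed *GDF15*, and the other ligands and receptors lay between -0.08 and 0.08. The GDF15 receptor *GFRAL* was at 0.00 and its signalling partner *RET* at 0.02. Finally, none of 13 measured genes of the mitochondrial stress relay and chaperones passed 1.4-fold (0 genes), with 5 higher, 8 lower and a median of -0.07. In that list, *DELE1*, which carries the mitochondrial signal to *EIF2AK1*, was at -0.14, the protease *OMA1* that cleaves it at 0.09 and *AFG3L2* was the lowest (-0.22).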

How the data were processed

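HT29 RNA, labelled with the WT PLUS kit, was hybridised to Affymetrix Human Gene 2.0 ST arrays (2 arrays, 1 per group), which the study evaluated in GeneSpring. The authors deposited log2 values for 44629 probe sets, centred per probe set. The log base, background correction, summarization, normalization and any filter were not given in the sources used here. The base was taken as 2. A platform annotation gave 15835 probe sets exactly 1 symbol each, covering 14812 genes, and these are the named probe sets. The other 28794, with no symbol or with several, were left out. A gene without a named probe set may therefore still be on the array. Probe sets of a gene were averaged, and the difference was siREG4 minus siControl. The number of arrays limits the precision, and no test was possible.

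The 9 genes and 18 pathway lists were chosen with earlier results of these data known. Named were all 9 genes, the rank neighbours of the highest, and in each list the genes past 1.4-fold or, with none, the lowest and highest. Other genes, and the *KRTAP* gauge, were chosen after values were seen. RefSeq promoter and microRNA tables (GRCh38.p14) gave the sequences. Alternatives were quantile normalization, the first probe set of a gene, thresholds of 2-fold and 1.2-fold, protein-coding genes only, list means, lists without the 9 genes, centring on protein-coding genes and promoter windows that end at the start. Counting past 1.4-fold, with and without quantile normalization, was tested on simulated gene values, and the averaging of probe sets was not. The simulated shifts were set well past the threshold with small noise. That test therefore checks the code and not the counts given here. Python 3.11.15, numpy 2.4.6, pandas 2.3.3 and matplotlib 3.10.9 were used.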

Additional observations from a re-analysis of the deposited data

How the results depend on the processing

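With 1 array per group there is no leaving out of a replicate, and no level for a filter on dim probe sets. No paired analysis was possible because each group holds 1 array. A value was taken as moved when it shifted by more than the SD of the *KRTAP* genes (0.09), and a count when it shifted by more than 1.5 times. Of 133 values under alternatives, 120 did neither, 13 moved and 0 changed sign from a value past 1.4-fold. The 120 include values that an alternative could not change, so their number is no measure of stability. For the 9 genes, the first probe set changed nothing because each has 1 probe set. Centring on protein-coding genes changed nothing because their median was 0.0. Only quantile normalization could move these differences, by at most 0.11 on the log2 scale. The 2 columns mirror each other and hold no level, so it could not check the normalization between the arrays. Quantile normalization lowered *GDF15* to 1.02 and *SESN2* to 1.02. A 2-fold threshold left 2 of the 9 genes higher, with 26 higher and 13 lower among all named genes, and a 1.2-fold threshold gave 882 higher and 1043 lower, as a change of threshold must. Means in place of medians gave 0.30 for stress signalling and secretion and 0.19 for all ATF4 target lists (0.11 above *ATF4*). They gave 0.18 for hypoxia targets, 0.27 for the FOXO list and 0.31 for p53 targets.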

Other observations

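Several of the 9 genes are also known targets of other regulators, whose lists were measured on the same arrays. The p53 list held 14 measured genes, with a median of 0.05. Of these, 6 (42.9%) passed 1.4-fold upwards and 0 downwards, beside 1.51% and 1.67% of all named genes. Without *GDF15* and *SESN2*, the median was -0.01, while the other genes past 1.4-fold remained past it. The 6 were *GDF15* and *SESN2*, which belong to both pathways, the kinases *PLK2* (1.04) and *PLK3* (0.55), *TP53I3* (0.64) and *TP53INP1* (0.52). The sestrin *SESN1*, also a p53 target, was at -0.04 and cyclin G1 (*CCNG1*) was the lowest at -0.28. *CDKN1A* and *MDM2* had no named probe set and were not analysed here.

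In the FOXO list, which holds targets and the factors *FOXO1*, *FOXO3* and *FOXO4* themselves, 21 genes were measured. Of these, 17 were higher and 4 lower, with a median of 0.17. Past 1.4-fold were *FBXO32* (1.53), a muscle atrophy ubiquitin ligase subunit, *KLHL24* (1.23), counted above among the ATF4 targets, and *DDIT4*. Of 14 measured hypoxia targets, 10 were higher, with a median of 0.04, and *NDRG1* (0.81), *DDIT4* and the mitophagy receptor *BNIP3L* (0.61) passed 1.4-fold, whereas *BNIP3* (0.02) and *LDHA* (-0.02) lay near 0. In the NRF2 list, which holds targets, NRF2 itself (*NFE2L2*) and its inhibitor *KEAP1*, 12 genes were measured. Of these, 6 were higher and 5 lower, with a median of 0.01. Glutathione reductase (*GSR*, -0.56) was lower past 1.4-fold, 0 were higher, and haem oxygenase (*HMOX1*) was the highest at 0.34. The part of any of these regulators in the values of the 9 genes was not tested.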
